A study of Mus musculus with 12 samples.

Results

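In murine hip cartilage, 10 genes of the cells that line blood vessels were examined, 6 that mark endothelial identity (Pecam1, Cdh5, Kdr, Flt1, Tek and Vwf) and 4 that bring leukocytes to the vessel wall (Sele, Selp, Icam1 and Vcam1). They were chosen by gene symbol, and every probe that carries one of the symbols was taken, whatever its signal. All 10 genes, of 15434 gene symbols, are in the normalized table, with 12 of its 21004 probes. The array carries 5 further probes for Kdr, Flt1 and Vcam1 that are outside that table.

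RNA of hip cartilage from C57BL6 mice aged 4 to 6 weeks was hybridized to 12 Illumina mouse BeadChips, 3 for each of 4 groups. The femoral head was avulsed from wild type (WT) mice or from mice without Mapk9 (Mapk9 KO), the gene of a c-Jun N-terminal kinase, and cartilage was then either snap-frozen (control) or kept in serum-free culture for 4 h (injured). The methods state that 6 hips of 3 mice were combined for each replicate of a control and an injured set, and they do not name the genotype, so that the pool size of the Mapk9 KO samples is not known from them. Only injured hips were cultured, so that injury and culture cannot be told apart, and in a tissue lysate fewer cells of a type and less RNA per cell cannot be told apart either. The labels do not say in which cells Mapk9 is absent, or by which allele.

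Between 16930 and 18969 probes were detected per array (detection p-value under 0.05), and the median signal before normalization was 121 to 190. The knockout labels were checked at Mapk9 itself. 1 of its probes was detected on 3 of 3 WT control arrays, on 1 of 3 WT injured arrays and on 0 Mapk9 KO arrays. The other was detected on all 12 arrays, and lay between 10.05 and 10.9 on the log2 scale on WT arrays and between 8.69 and 9.28 on Mapk9 KO arrays. All 11 chondrocyte markers measured were detected on every array. The samples also held RNA of other tissues, since all 7 erythroid markers measured were detected on every array and 14 of 15 skeletal muscle markers on every WT control array.

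Endothelial cells line blood vessels and are recognised by junction proteins, by receptors for vascular growth factors and by stored von Willebrand factor. Once activated by cytokines, or by the release of stored granules, they expose selectins, on which leukocytes roll, and immunoglobulin-like ligands, on which leukocytes stop before they cross the wall. The transcription of E-selectin, ICAM-1 and VCAM-1 is known to respond to NF-kB, while P-selectin is also kept ready-made in granules of endothelial cells and platelets. Mature cartilage has no vessels of its own, and growing femoral heads lie next to vascular bone marrow and ligament.

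The promoters of the 3 genes upregulated in both genotypes are shown because these genes moved together. The 250 bases before the annotated start are given 5' to 3' from RefSeq (GRCm38.p6), at chr1:164047984-164048233 for Sele, chr9:21015690-21015939 for Icam1 and chr1:164115014-164115263 for Selp, all on the plus strand. Capitals mark matches to GGANNTTCC, the core of many NF-kB sites, to TGANTCA, the core of AP-1 sites, and to TATAAA, where N is any base.
Sele: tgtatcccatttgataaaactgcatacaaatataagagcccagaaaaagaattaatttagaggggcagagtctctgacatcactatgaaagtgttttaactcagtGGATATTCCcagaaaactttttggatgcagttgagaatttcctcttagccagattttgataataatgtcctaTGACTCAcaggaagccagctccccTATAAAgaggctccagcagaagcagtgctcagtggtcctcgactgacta
Icam1: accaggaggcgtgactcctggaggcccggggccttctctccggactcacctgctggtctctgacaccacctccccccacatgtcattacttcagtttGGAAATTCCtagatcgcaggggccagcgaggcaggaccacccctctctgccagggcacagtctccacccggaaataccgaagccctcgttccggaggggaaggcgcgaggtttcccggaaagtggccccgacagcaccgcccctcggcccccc
Selp: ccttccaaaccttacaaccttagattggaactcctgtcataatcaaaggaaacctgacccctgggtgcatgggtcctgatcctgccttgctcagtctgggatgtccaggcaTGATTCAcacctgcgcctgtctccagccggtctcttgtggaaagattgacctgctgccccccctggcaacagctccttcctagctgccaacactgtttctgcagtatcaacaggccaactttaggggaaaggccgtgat
The NF-kB letters were found at 145 bases before the start in Sele (GGATATTCC) and at 153 bases in Icam1 (GGAAATTCC), and not in the Selp window. Among 32851 RefSeq promoter windows of this length, 3.59% hold them on either strand. TGANTCA was found at 73 bases before the start in Sele and at 139 bases in Selp, and is held by 6.75% of windows. TATAAA, searched on the forward strand only, was found at 49 bases before the start in Sele and is held by 7.59% of windows. None of these matches overlap. Of the identity genes with a window in the table, Flt1 holds TATAAA at 31 bases before its start, and the windows of Tek and Kdr hold none of the 3 motifs. The motifs were chosen after these windows had been read, and a match describes the letters only. No window was matched for Vcam1, Cdh5, Pecam1 or Vwf.

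Post injury, Sele, Selp and Icam1 were upregulated in WT and in Mapk9 KO cartilage, while the fourth adhesion gene, Vcam1, was downregulated in Mapk9 KO and lay lower without passing the threshold in WT. Of the identity genes, Cdh5 was upregulated in WT, and the other 5 passed the threshold in neither genotype. A gene was called upregulated or downregulated if any probe of it changed by more than 2-fold with an adjusted p below 0.05 (limma, Benjamini-Hochberg adjustment over the 21004 probes), and these are the limits meant by the threshold. In WT, 4 of the 10 genes were upregulated, where 8.35% of all genes were, and 0 were downregulated, where 8.24% of all genes were. At an unadjusted p under 0.05, 6 of the 10 differed in WT, counting changes of any size, where 41.4% of all genes did (20.2% higher, 21.6% lower). In Mapk9 KO 6 of the 10 also differed at that level, where 50.9% of all genes did (24.7% higher, 26.6% lower). In Mapk9 KO, 3 of the 10 were upregulated, where 10.6% of all genes were, and 1 was downregulated, where 10.4% of all genes were. Levels below are deposited vsn-normalized log2 signals, and a gene is described by its main probe, the one with the highest mean over the 12 arrays.

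E-selectin, the product of Sele, is made almost only by activated endothelium and catches rolling neutrophils. Its probe read 5.16, 4.56 and 4.67 on the WT control arrays and 6.77, 5.85 and 6.15 on the WT injured arrays, in the order of replicates 1 to 3. In Mapk9 KO it read 4.55, 4.19 and 4.81 on control arrays and 7.61, 6.99 and 6.85 on injured arrays. Every injured array was above every control array of either genotype, and the probe was detected on 6 of 6 injured arrays and on 0 of 6 control arrays. Because the control level is therefore only an upper limit, the change is given as a bound, with the lowest signal of a detected probe standing in for a control value beneath it. Sele was at least 1.33-fold higher post injury in WT and at least 2.32-fold higher in Mapk9 KO. In WT this bound is under the fold limit, so that the call there rests on control values that were not detected. The fitted log2 changes, which are not bounds, were 1.46 in WT (adjusted p = 0.00383 by limma) and 2.63 in Mapk9 KO (adjusted p = 1.33e-05). With quantile normalization of signals that were not background-corrected, in place of the deposited values, they were 0.47 and 0.96, and Sele passed the threshold in neither genotype.

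P-selectin, the product of Selp, is the first selectin to reach the surface of endothelial cells and platelets. Its level was 8.87, 7.60 and 8.31 on WT control arrays and 9.99, 9.94 and 9.90 on WT injured arrays. It was 8.15, 8.59 and 8.64 on Mapk9 KO control arrays and 9.84, 10.22 and 9.65 on Mapk9 KO injured arrays. The injured arrays lay above all control arrays in both genotypes, and the spread was widest among the WT controls, at 0.64 (SD, n = 3) against 0.04 among the WT injured arrays. Selp was upregulated 3.21-fold in WT (log2 change 1.68, SE 0.29, adjusted p = 0.00261 by limma) and 2.72-fold in Mapk9 KO (log2 change 1.44, SE 0.21, adjusted p = 0.000353).

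ICAM-1 binds the beta-2 integrins of leukocytes and is made by endothelial and by many other cells, chondrocytes and fibroblasts among them. The log2 level of Icam1 was 9.11, 8.17 and 8.60 in WT control and 9.92, 10.26 and 10.10 in WT injured samples. In Mapk9 KO it was 8.07, 8.30 and 8.38 in control and 10.04, 9.96 and 10.04 in injured samples. The groups did not overlap in either genotype, and the 6 injured arrays all lay between 9.92 and 10.26. Icam1 was upregulated 2.77-fold in WT (log2 change 1.47, SE 0.26, adjusted p = 0.00261 by limma) and 3.40-fold in Mapk9 KO (log2 change 1.77, SE 0.17, adjusted p = 1.86e-05). The methods' t-test on the same values kept none of Sele, Selp and Icam1 past the threshold in WT after adjustment (the highest adjusted p, for Sele, was 0.0703), and kept all of them in Mapk9 KO.

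VCAM-1 binds the integrin of lymphocytes and monocytes that contains the alpha-4 chain, and it is made by endothelium on activation and by bone marrow stroma, muscle precursors and synovial cells without it. Vcam1 read 11.18, 11.51 and 10.66 on the WT control arrays and 10.46, 10.53 and 10.08 on the WT injured arrays. The values were 11.29, 11.47 and 11.34 on Mapk9 KO control arrays and 10.25, 10.26 and 10.24 on Mapk9 KO injured arrays. In both genotypes every injured array was below every control array, the reverse of the other 3 adhesion genes. Vcam1 was downregulated in Mapk9 KO, where its control level was 2.17 times the injured level (log2 change -1.12, SE 0.16, adjusted p = 0.000329 by limma). In WT the control level was 1.70 times the injured level (log2 change -0.76, SE 0.25, adjusted p = 0.0514). This is under the fold limit, while the p limit depended on the fit, since the adjusted p was 0.0186 with the replicate number as a block and 0.00445 to 0.179 over the 18 alternatives. A further 3 Vcam1 probes outside the normalized table were not detected, apart from 1 of them on 1 Mapk9 KO injured array, so that the result rests on 1 probe.

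**Figure D1:**
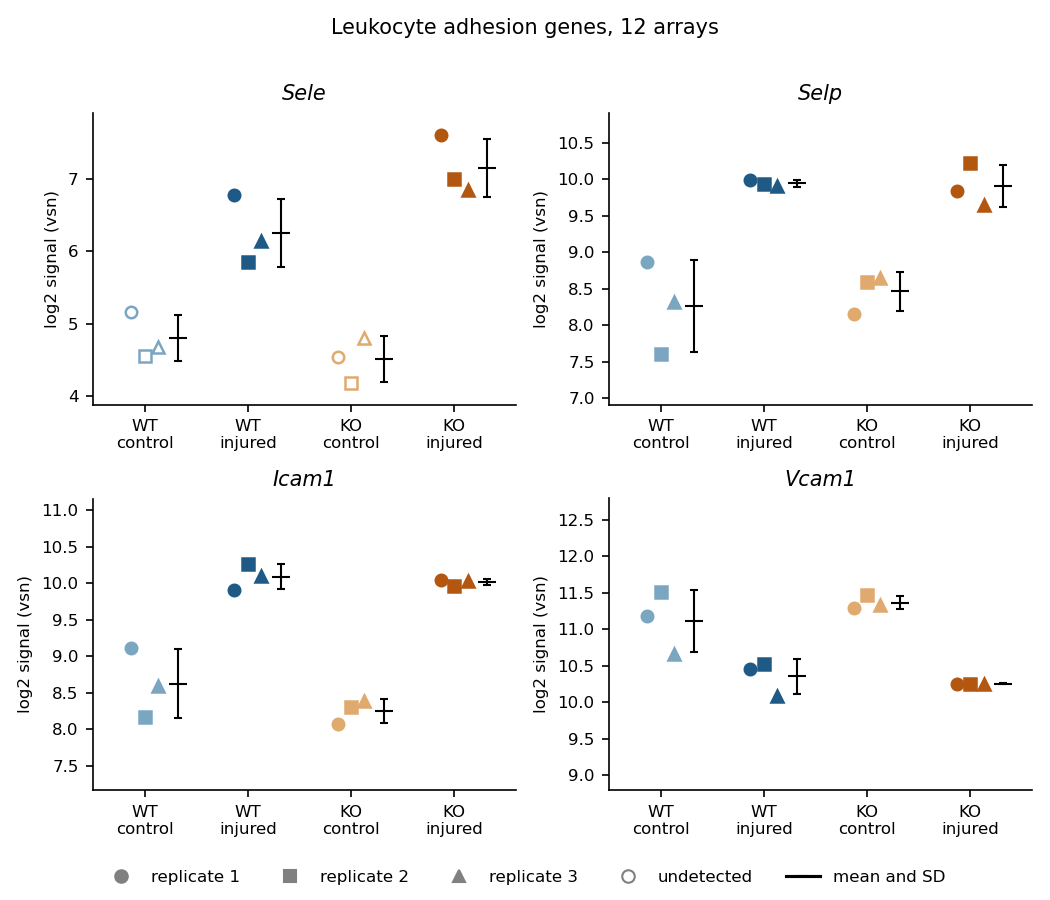
Normalized log2 signal (vertical axis) of the main probes of Sele, Selp, Icam1 and Vcam1 in the 4 groups of 3 arrays (horizontal axis), where each symbol is 1 array, its shape gives the replicate number, open symbols are undetected and black bars give the mean and SD. Each panel has its own scale, and injured arrays lie above control arrays for Sele, Selp and Icam1 and below them for Vcam1 in both genotypes.

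Muscle markers, and some of the markers of vessel walls, were also lower post injury. All 15 skeletal muscle markers were downregulated post injury in Mapk9 KO and 12 of 15 in WT, with a median log2 change of -3.63 and -2.62 (-3.63 and -2.50 with genes undetected post injury at their bound), although 0 of 15 passed in WT by the methods' t-test, where 7 had an unadjusted p under 0.05. Of 9 mural cell markers, which mark the pericytes and smooth muscle around vessels, 5 were downregulated in WT and 6 in Mapk9 KO by limma. By the methods' t-test 3 passed as lower in WT and 6 in Mapk9 KO. The medians of the 9 were -1.18 in WT and -1.64 in Mapk9 KO (-0.15 and -1.27 with Myh11 at its bound and the undetected Tagln at 0). Cspg4, a pericyte proteoglycan, was upregulated in Mapk9 KO (log2 change 1.23, adjusted p = 0.000296 by limma) and gave 0.84 in WT (adjusted p = 0.024). Rgs5, another pericyte gene, changed by -2.21 (SE 0.24) in WT and by -2.14 (SE 0.20) in Mapk9 KO on the log2 scale. The summed linear signal of the muscle markers was 74568 to 105116 in WT control, 10344 to 37128 in WT injured, 122180 to 185221 in Mapk9 KO control and 13318 to 32320 in Mapk9 KO injured samples. That of the mural markers was 2468 to 3058, 1578 to 1963, 3072 to 3130 and 1578 to 1768 in the same order, with Tagln detected on none of the 12 arrays. The part of these tissues in the lower Vcam1 level was not tested.

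VE-cadherin, the product of Cdh5, holds endothelial cells to each other at their junctions and is among the most specific endothelial genes. Its main probe read 9.92, 9.21 and 9.46 in WT control and 10.58, 10.69 and 10.71 in WT injured samples. In Mapk9 KO it read 9.55, 9.63 and 9.07 in control and 10.12, 10.32 and 10.10 in injured samples. Injured arrays were above control arrays in both genotypes. Cdh5 was upregulated 2.19-fold in WT (log2 change 1.13, SE 0.22, adjusted p = 0.00519 by limma), and its other probe also passed there (log2 change 1.03, SE 0.20, adjusted p = 0.0042). In Mapk9 KO the main probe was 1.70-fold higher (log2 change 0.76, SE 0.20, adjusted p = 0.0106), under the fold limit, and the other probe passed neither limit (log2 change 0.55, SE 0.20, adjusted p = 0.0572). The call in WT was lost when the second WT control replicate was left out, where the main probe changed by 0.97 on the log2 scale. By the methods' t-test the main probe did not pass in WT (adjusted p = 0.0513) and the other probe did (adjusted p = 0.0266).

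PECAM-1 sits at the same junctions and is also found on platelets and leukocytes. The main Pecam1 probe read 9.04, 8.68 and 8.95 on WT control arrays, 9.14, 8.88 and 8.68 on WT injured arrays, 8.75, 8.76 and 8.65 on Mapk9 KO control arrays and 9.02, 8.98 and 8.70 on Mapk9 KO injured arrays. The groups overlapped in both genotypes. The log2 change was 0.005 in WT (95% interval -0.46 to 0.47, adjusted p = 0.989 by limma) and 0.18 in Mapk9 KO (-0.20 to 0.56, adjusted p = 0.443). Its other probe gave 0.27 in WT (adjusted p = 0.378) and 0.05 in Mapk9 KO (adjusted p = 0.908).

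Von Willebrand factor, stored beside P-selectin in the granules of endothelial cells, tethers platelets to the vessel wall. Vwf read 10.25, 9.91 and 9.79 in WT control and 10.78, 10.67 and 10.48 in WT injured samples. In Mapk9 KO it read 10.10, 10.14 and 10.25 in control and 10.15, 10.29 and 9.53 in injured samples. The WT groups did not overlap, and the Mapk9 KO groups did, with the third injured replicate the lowest of all 12 arrays. In WT the level was 1.58-fold higher post injury (log2 change 0.66, SE 0.21, adjusted p = 0.0418 by limma), which is under the fold limit. The adjusted p of Vwf in WT was 0.0129 to 0.13 over the 18 alternatives, and above the p limit by the methods' t-test (0.0828) and when any WT array other than the first control replicate was left out. In Mapk9 KO the log2 change was -0.18 (SE 0.22, adjusted p = 0.566), and without the third injured replicate it was 0.05 (adjusted p = 0.863).

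Megakaryocytes and platelets also make and carry von Willebrand factor, and their markers were therefore set beside it. None of 9 markers measured passed the threshold in either genotype by limma or by the methods' t-test, and at an unadjusted p under 0.05 by limma 4 were higher in WT and 0 differed in Mapk9 KO, with a median log2 change of 0.45 in WT and 0.12 in Mapk9 KO. Gp9, Gp1bb and Gp6, which encode platelet receptor chains and were picked out after their values were seen, changed by 0.71, 0.96 and 0.90 in WT (adjusted p = 0.0262, 0.00749 and 0.0077) and by -0.04, 0.18 and 0.02 in Mapk9 KO. The summed linear signal of the 9 markers was 7371 to 10572 in WT control, 11360 to 12866 in WT injured, 8050 to 10161 in Mapk9 KO control and 8340 to 11640 in Mapk9 KO injured samples, and all 9 were detected on every array. The part of platelets and megakaryocytes in the levels of Vwf, Selp and Pecam1 was not tested.

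The remaining 3 identity genes encode receptor tyrosine kinases of vascular growth factors. Flt1, a receptor and decoy for VEGF proteins, lay between 10.46 and 10.83 on WT control and between 10.56 and 10.74 on WT injured arrays, and between 9.89 and 10.62 and between 10.29 and 10.65 in Mapk9 KO. These groups overlapped, with log2 changes of 0.03 in WT (95% interval -0.41 to 0.46, adjusted p = 0.938 by limma) and 0.19 in Mapk9 KO (-0.29 to 0.68, adjusted p = 0.529). Kdr, the main signalling receptor for VEGF-A, was close to background, detected on 7 of 12 arrays with values of 5.59 to 6.37. Its log2 change was -0.05 in WT (95% interval -0.52 to 0.41, adjusted p = 0.879 by limma) and -0.06 in Mapk9 KO (-0.55 to 0.43, adjusted p = 0.866). How far signal this close to background hides a change was not tested.

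Tek encodes the angiopoietin receptor that keeps vessels quiescent. It read 9.56, 9.61 and 9.28 in WT control and 9.23, 9.21 and 9.06 in WT injured samples, and 9.52, 9.64 and 9.40 in Mapk9 KO control and 9.25, 9.16 and 8.84 in Mapk9 KO injured samples. Each injured array was below all control arrays of its genotype, but by little, and Tek did not pass. Its log2 change was -0.32 in WT (SE 0.20, adjusted p = 0.274 by limma) and -0.44 in Mapk9 KO (SE 0.18, adjusted p = 0.0836).

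**Figure D2:**
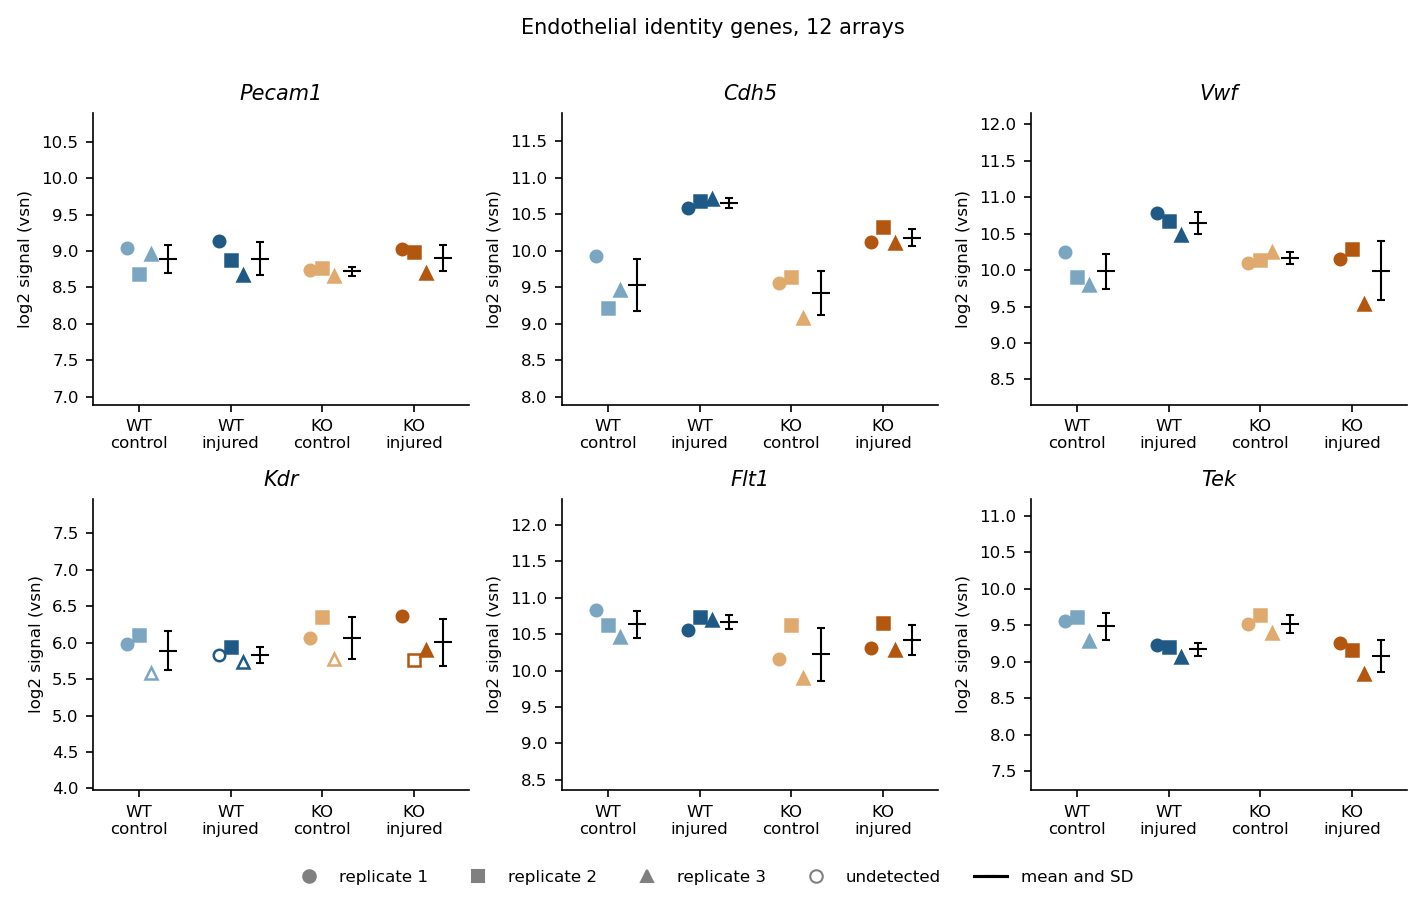
Normalized log2 signal (vertical axis) of the main probes of the 6 endothelial identity genes in the 4 groups of 3 arrays (horizontal axis), drawn as 1 symbol per array with its shape for the replicate number, open symbols for undetected arrays and black bars for the mean and SD. Injured arrays are separate from control arrays in both genotypes for Cdh5, above, and Tek, below, in WT alone for Vwf, and in neither for Pecam1, Kdr and Flt1.

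Set side by side, the adhesion genes had a median log2 change of 1.46 in WT and 1.60 in Mapk9 KO, and the identity genes one of 0.02 and 0.06. The median over all genes was -0.02 and -0.04. The difference between the medians of the adhesion and identity genes was 1.44 in WT and 1.54 in Mapk9 KO. On each array the median adhesion level minus the median identity level was taken, with a pooled SD within groups of 0.29 in both genotypes. That SD measures levels and is not the spread of the differences in change. The medians of the changes hold the fitted change of Sele against undetected controls. With Sele at its bound the adhesion medians were 0.94 and 1.33, and the differences 0.92 and 1.27. When means were taken in place of medians, which lets Vcam1 count in full, the differences were 0.72 and 1.10. These means hold the fitted change of Sele and not its bound. No test was made of these differences, because the genes had been chosen with earlier results of these data known.

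The change post injury did not differ between genotypes past the threshold for any of the 10 genes by limma (interaction over 12 arrays, smallest adjusted p = 0.357, for Sele), and 0% of all genes passed that test. At an unadjusted p under 0.05, 2 of the 10 genes differed, Sele and Vwf, where 12.4% of all genes did (7.35% with a higher and 5.05% with a lower value in Mapk9 KO). The fitted Sele change was larger in Mapk9 KO than in WT by 1.18 on the log2 scale (95% interval 0.34 to 2.01, unadjusted p = 0.00893 by limma), with undetected control arrays in both genotypes. On injured arrays alone, a comparison that was not tested, Sele was 5.85 to 6.77 in WT and 6.85 to 7.61 in Mapk9 KO. Cdh5 lay the other way, at 10.58 to 10.71 in WT and 10.10 to 10.32 in Mapk9 KO. So did Vwf, at 10.48 to 10.78 and 9.53 to 10.29. The Vwf change was smaller in Mapk9 KO by a log2 difference of -0.83 (95% interval -1.47 to -0.20, unadjusted p = 0.0138 by limma). For Selp the difference was -0.24 (-1.06 to 0.58), for Icam1 0.30 (-0.36 to 0.95), for Vcam1 -0.36 (-0.99 to 0.28) and for Cdh5 -0.37 (-0.99 to 0.26), and these intervals include a 2-fold difference for Selp and come close to one for the other 3.

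In control cartilage, none of the 10 genes passed the threshold between Mapk9 KO and WT by limma. None had an unadjusted p under 0.05 in that fit or in the methods' t-test. Among the other limma alternatives, Flt1 had one after neqc (0.0399) and with quantile normalization (0.0155). It also had one without the second Mapk9 KO control replicate (0.0364), and Icam1 had one without the second WT control replicate (0.0325). Over all genes 0.0389% passed as higher and 0.11% as lower in Mapk9 KO, and at an unadjusted p under 0.05 by limma 3.65% were higher and 4.22% lower. The smallest adjusted p was 0.861, for Flt1, with a log2 difference of -0.42 (95% interval -0.95 to 0.11). For Icam1 the difference was -0.38 (-0.95 to 0.20) and for Vcam1 0.25 (-0.29 to 0.80), and Sele was undetected in both control groups.

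**Figure D3:**
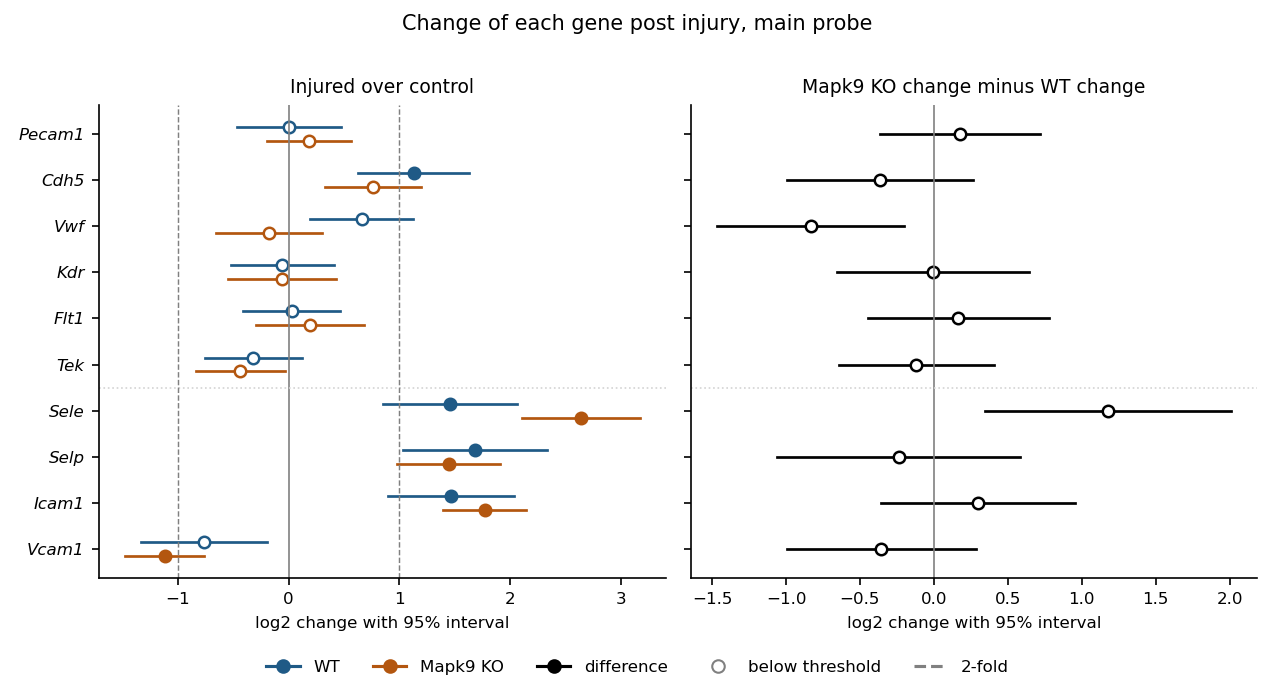
Log2 change post injury of each gene's main probe (left, WT and Mapk9 KO) and the difference between the genotypes (right), with 95% intervals from limma on the horizontal axes and the genes on the vertical axis. Filled points passed the threshold, dashed lines mark a 2-fold change, and Sele, Selp and Icam1 lie to the right of it while Vcam1 lies on the other side of 0.

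The lists below place the 10 genes among others of known function, and each was read by its counts against the background shares given above. Of 22 other endothelial genes measured, 2 were upregulated and 1 was downregulated by limma, in WT and in Mapk9 KO alike, with a median log2 change of 0.13 and -0.09. These counts are near the shares over all genes. By the methods' t-test 1 passed as higher and 0 as lower in WT, and 2 and 1 in Mapk9 KO. The 3 genes called by limma are SoxF transcription factors of endothelial development. Sox7 changed by 2.83 (SE 0.23) in WT and 3.15 (SE 0.22) in Mapk9 KO on the log2 scale, and Sox17 by 1.17 (SE 0.25) and 1.93 (SE 0.20). Sox18 was downregulated, by a log2 change of -1.73 (SE 0.28) and -1.85 (SE 0.21). The summed linear signal of these 22 genes was 17649 to 22867 in WT control, 21483 to 24598 in WT injured, 16149 to 21262 in Mapk9 KO control and 16299 to 21343 in Mapk9 KO injured samples.

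Of 7 measured vascular growth factors, related factors and co-receptors, 3 were upregulated and 2 downregulated in WT by limma. In Mapk9 KO 1 was upregulated and 2 were downregulated. The medians were -0.49 in WT and -0.42 in Mapk9 KO. These genes were Vegfa, Vegfb, Vegfc, Figf, Pgf, Angptl4 and Nrp2, and not all of them are ligands of Kdr, Flt1 or Tek. By the methods' t-test 2 were upregulated and 0 downregulated in WT, with the Mapk9 KO counts unchanged. Figf, the gene of VEGF-D that is counted as lower in WT, was undetected post injury in both genotypes and no bound could be given for it, and both medians were 0 with Figf set at 0. Vegfa, the ligand of Kdr and Flt1, changed by 2.38 (SE 0.20, adjusted p = 3.53e-05 by limma) in WT and 3.04 (SE 0.20, adjusted p = 1.25e-06) in Mapk9 KO. Nrp2, a co-receptor, was downregulated in both, by a log2 change of -1.10 and -1.17, and was detected on 2 of 3 Mapk9 KO injured arrays.

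The partners of the adhesion genes on leukocytes were measured in the same RNA. Of 9 counter-receptors, 2 were upregulated in each genotype and 0 downregulated by limma (0 in WT and 3 in Mapk9 KO were lower at an unadjusted p under 0.05), with medians of 0.48 and 0.34. Itgal, the alpha chain of an ICAM-1 receptor, changed by 1.22 (SE 0.22, adjusted p = 0.00336 by limma) in WT and 1.11 (SE 0.17, adjusted p = 0.000475) in Mapk9 KO. Itga4, the alpha chain of the VCAM-1 receptor, passed in neither (-0.36, adjusted p = 0.298, and -0.88, adjusted p = 0.00184). Of 11 general leukocyte markers, 3 were upregulated and 2 downregulated in WT and 3 and 3 in Mapk9 KO, with Mpo counted as higher in both for a probe other than its main one, and with medians of 0.38 and -0.07 (0.32 and 0 with the undetected Cd3e set at 0). Cd14 changed by 5.01 and 5.33, and Csf1r, a macrophage receptor, by -1.88 and -2.21, while the main probe of Cd3e, a T cell gene, was detected on none of the 12 arrays. The summed linear signal of the leukocyte markers was 28022 to 43444 in WT control, 49635 to 58241 in WT injured, 34246 to 50199 in Mapk9 KO control and 41882 to 58543 in Mapk9 KO injured samples. The part of leukocytes in the levels of Selp, Icam1 and Pecam1 was not tested.

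Other genes of leukocyte passage moved in both directions. Of 10 measured, 2 were upregulated and 1 downregulated in WT, and 3 and 2 in Mapk9 KO, with medians of 0.27 and 0.19 (0.27 and 0.10 with genes undetected in controls at their bound). Pvr, a nectin-like junction protein, changed by 2.42 (SE 0.19) in WT and 2.65 (SE 0.20) in Mapk9 KO. Jam2, a junction molecule of endothelium, was at least 2.00-fold higher in WT and at least 1.94-fold higher in Mapk9 KO post injury. Aoc3, which encodes vascular adhesion protein and is abundant in fat and smooth muscle, was downregulated by a log2 change of -1.10 (SE 0.23) in WT and -2.01 (SE 0.28) in Mapk9 KO.

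Of 14 measured NF-kB feedback genes and companion targets, 7 were upregulated in WT and 8 in Mapk9 KO and 0 were downregulated by limma (1 in each genotype was lower at an unadjusted p under 0.05), with medians of 1.13 and 1.25 (0.90 and 1.25 with genes undetected in controls at their bound). Cxcl1, a neutrophil chemokine, was at least 99.8-fold higher post injury in WT and gave a fitted log2 change of 6.82 (adjusted p = 6.22e-08 by limma) in Mapk9 KO, where its probe was detected on 1 of 3 control arrays. Ccl2, a monocyte chemokine, was at least 2.80-fold higher in WT and at least 2.53-fold higher in Mapk9 KO. Nfkbiz, an NF-kB cofactor, changed by 2.21 (SE 0.25) and 3.17 (SE 0.20). Of 8 measured genes that act with von Willebrand factor or in coagulation, its restraint and fibrinolysis, 1 was upregulated in WT, Gp1ba, the platelet receptor of von Willebrand factor (log2 change 1.21, SE 0.22, adjusted p = 0.00331 by limma), and 0 of 8 passed in Mapk9 KO by limma or the methods' t-test (4 had an unadjusted p under 0.05 by limma), where Gp1ba gave 0.11 (SE 0.21, adjusted p = 0.719).

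The remaining lists hold markers of the other tissues. Of 11 chondrocyte markers, 6 were upregulated in WT and 1, Col11a1, passed as lower there at a probe other than its main one, and 7 were upregulated in Mapk9 KO, with medians of 1.08 and 1.23, and Matn1, a cartilage matrix gene, changed by 3.16 (SE 0.33) and 3.08 (SE 0.24). Of 7 erythroid markers, Klf1 was the gene that passed, downregulated in both genotypes, which is near the share over all genes. Of 9 bone and fat markers, 4 were downregulated in WT and 5 in Mapk9 KO by limma, and 1 and 4 by the methods' t-test. By limma 0 were higher even at an unadjusted p under 0.05. Bglap1, the osteocalcin gene, was counted in both genotypes for a probe other than its main one, which gave 0.33 in WT and -0.16 in Mapk9 KO. Cidec, a gene of fat cells, was detected on 1 of 3 control arrays and on no injured array of either genotype, and no bound could be given for it in WT. Of the 140 genes of all lists, 0 passed for the genotype in control cartilage and 0 for the interaction by limma, while 25 and 24 had an unadjusted p under 0.05, where 7.85% and 12.4% of all genes did. Among the 25 were 10 of 15 muscle markers, which were higher in Mapk9 KO than in WT control samples at that level, while by the methods' t-test 2 of the 15 were, and 13 of the 140 genes differed. Of the 22 other endothelial genes, 1 was higher and 6 were lower in Mapk9 KO control samples at that level by limma, and 2 were higher and 3 lower by the methods' t-test. The 24 for the interaction held 5 of the 10 other genes of leukocyte passage (3 with a higher and 2 with a lower value in Mapk9 KO), 3 of the 9 platelet markers and 3 of the 15 muscle markers, the last 6 all with a lower value. Another 3 were chondrocyte markers, of 11 measured, all with a higher value in Mapk9 KO.

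**Figure D4:**
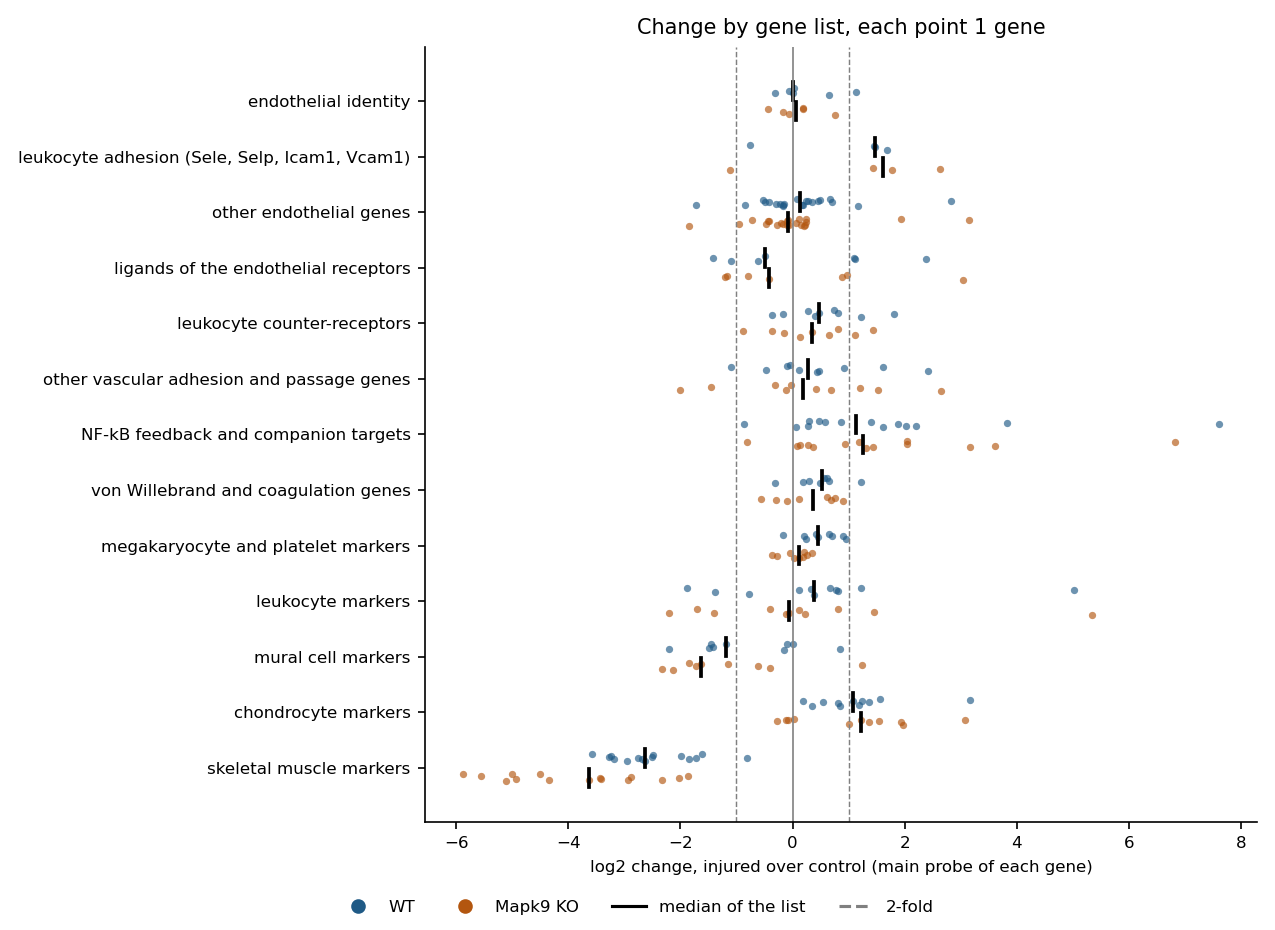
Fitted log2 change post injury of the main probe of each gene (horizontal axis), by gene list (vertical axis), for WT and Mapk9 KO, with black bars for the median of a list and dashed lines for a 2-fold change, and with fitted values also for genes undetected in 1 group. The identity genes and the other endothelial genes have medians close to 0, the adhesion genes have medians of 1.46 and 1.60 with Vcam1 apart on the left, and the muscle markers lie farthest to the left.

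The genes whose levels followed each member most closely over the 12 arrays are given as a description. These arrays share the contrast of control and injured tissue, which by itself makes changed genes correlate. Icam1 was closest to Dtr, Ccbp2 and 2610312F20Rik (Pearson's r of 0.993, 0.993 and 0.991), and Selp to Klf5, Ruvbl2 and LOC383712 (0.983, 0.983 and 0.979). Cdh5 was closest to Tfip11, Wnt7b and Vgll4 (0.990, 0.980 and 0.980), Vcam1 to Siah1b, 4933411D12Rik and D7Rp2e (0.986, 0.986 and 0.985), and Vwf to AU023871, Gp9 and Eif4el3 (0.955, 0.898 and 0.888). Among the 10 genes themselves, Icam1 had an r of 0.948 with Selp, 0.905 with Cdh5, 0.890 with Sele and -0.905 with Vcam1, and Vcam1 one of 0.895 with Tek.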

How the data were processed

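The authors deposited the bead signal intensities of 45281 probes on 12 arrays as scanned, each with a detection p-value. They also deposited log2 values of 21004 probes, made by subtracting a background estimated from negative controls on each array, followed by vsn normalization. The version of vsn is not given in the sources used here. Groups and replicate numbers were taken from the sample labels, and gene symbols from the deposited table. The genome build of the probe positions is not given there, so none are printed.

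The log2 values were fitted with lmFit and eBayes of limma (version 3.58.1, R 4.3.3), and p-values were adjusted by the Benjamini-Hochberg method across the table. The effect of injury was fitted in each genotype on 6 arrays, that of genotype on the 6 control arrays, and the interaction, with the adjusted p alone, on 12. Where no array of a group detected a probe, the bound compares the mean of the brighter group with the dimmer group after each dimmer array was raised, where lower, to the weakest signal of any detected probe on it, and no bound is given where this leaves no difference. The genes and lists were chosen with earlier results of these data known, and the closest correlates are the 3 highest by Pearson's r. From each list, up to 3 genes per direction past the threshold in both genotypes were named, and others where they check a label or say what a list holds. Not every gene that this rule names is reported here.

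Arrays with the same replicate number deviated together from their group means (r of 0.153 to 0.390 over 18 pairs, against -0.289 to 0.083 over 36 other pairs). Deviations from a group mean cancel within the group, so that these ranges are not independent of each other. Samples of a genotype with the same replicate number also share the digit of the label code, which the comparison did not separate. The replicate numbers of the labels were taken to pair the samples. The values printed are nevertheless from fits without the block, and the replicate block was tried as an alternative. Further alternatives used neqc (offset 16), quantile normalization of uncorrected signals, subtraction of array medians, probes detected on at least 3 or at least 6 arrays, a block for the digit of the label code, the methods' t-test, a fold limit of 1.5 or none, 1 probe per gene, a joint fit of 12 arrays, and omission of each array. The scripts were tested on simulated data. The number of arrays limits the precision.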

Additional observations from a re-analysis of the deposited data

How the results depend on the processing

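Each comparison was repeated under the alternatives, all of them planned. The direction of Sele, Selp, Icam1, Vcam1 and Cdh5 post injury was the same in both genotypes under all 18 of them. Of the 10 genes, 4 passed in WT, 2 with quantile normalization without background correction (Selp and Icam1) and 1 with the methods' t-test (Cdh5, at the probe that is not its main one). With 1 array left out at a time the count was 3 to 4 in WT, where leaving out the second WT control replicate lost Cdh5, and 4 in Mapk9 KO. In Mapk9 KO the quantile setting lost Sele. With the replicate block 4 genes passed in WT and 4 in Mapk9 KO, and the paired fit changed no call. The interaction of Sele came closest to the threshold in that fit (adjusted p = 0.0826, and between 0.0826 and 0.682 over its 20 alternatives). The difference between the medians of adhesion and identity genes was 0.84 in WT and 1.01 in Mapk9 KO with the quantile setting, and 0.72 and 1.10 with means. It lay between 1.25 and 1.57 in WT and between 1.43 and 1.73 in Mapk9 KO with 1 array left out. Genes under the fold limit, Vwf in WT and Cdh5 in Mapk9 KO, passed when the limit was 1.5 or none. Sele and Kdr are limited by signal close to background. Over the 140 genes of all lists, 26 passed as higher and 29 as lower in WT by limma, and 19 and 7 by the methods' t-test. In Mapk9 KO the counts were 27 and 35 by limma, and 25 and 33 by the methods' t-test.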
